A study of Homo sapiens with 54 samples.

Results

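10 long non-coding RNAs (lncRNAs) were followed across 54 xenograft tumours of LNCaP cells: PCA3, PCAT1, PCAT14, PCGEM1, SCHLAP1, DRAIC, ARLNC1, GAPLINC, MALAT1 and NEAT1. They are 10 of the 60642 gene symbols in the expression table. 9 are known lncRNAs of prostate tissue or prostate cancer, and GAPLINC was selected on these same tumours because its level differed between the relapse steps. GAPLINC is therefore described by its values, with no test. All 10 passed the filter on low values (at least 1 TPM, the length-corrected share of transcripts, in at least 8 tumours), as did 17131 symbols in all, and 9 of them were tested.

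LNCaP (clone FGC) comes from a human prostate cancer that grows in response to androgen, and was here grown under the skin of male, immunodeficient NOD-SCID mice. Surgery was done when a tumour reached about 200 mm3. The PRE-CX group (n = 9) had mock surgery and no drug and was harvested at 1000 mm3. All 45 other tumours came from castrated mice. POST-CX tumours (n = 8) were taken 1 week after castration, at the lowest serum level of prostate-specific antigen, and CRPC tumours (n = 10) when the antigen was back at its level from before castration or the tumour reached 1000 mm3, both without drug. Mice of the ENZS (n = 12) and ENZR (n = 15) groups also received the antiandrogen enzalutamide by mouth at 10 mg/kg on 5 days a week, starting when the antigen began to rise after castration. ENZS tumours were taken at the second fall of the antigen, and ENZR tumours at relapse on the drug or at 1000 mm3. Every tumour came from its own mouse, but all derive from the same cell line, so the spread between tumours is that of 1 human genotype. The comparisons ask how the level of each lncRNA differed after androgen withdrawal, at relapse, during the response to enzalutamide and at relapse on it. PRE-CX tumours were harvested at a set size, but POST-CX and ENZS tumours at a low of the antigen. Tumour size and time of growth therefore cannot be told apart from castration and drug in these comparisons.

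A lncRNA is transcribed and usually spliced like a messenger RNA but is not translated into a long protein. Several are transcribed almost only in prostate epithelium, and some of their genes are switched on by androgen. PCA3 lies inside an intron of PRUNE2 on the other strand and is measured in urine as a marker of prostate cancer. PCGEM1 and ARLNC1 are androgen-responsive. PCAT1, PCAT14 and SCHLAP1 were found as transcripts raised in prostate cancer, and SCHLAP1 is known to counter the SWI/SNF chromatin remodelling complex. DRAIC is a lncRNA whose loss has been tied to invasion. MALAT1 and NEAT1 are abundant nuclear RNAs of most cell types, found in nuclear speckles and in paraspeckles, which are built on NEAT1. MALAT1 and the long NEAT1 isoform end without a regular poly(A) tail, and the libraries here were made from polyadenylated RNA.

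Promoters are shown for members whose level differed between groups and for which a RefSeq promoter was at hand (250 bases before to 50 bases after the start site, build GRCh38.p14, all on the + strand). RefSeq promoters were searched for 5 of the 10 members (PCA3, PCGEM1, DRAIC, GAPLINC and MALAT1). PCAT1 was left out of the search. Both strands were searched. The capitals mark TGTTCT (in reverse complement AGAACA), a hexamer of the androgen response element, or ACGTG, the core of a hypoxia response element. The windows are chr9:76764186-76764485 for PCA3, chr2:192749595-192749894 for PCGEM1, chr18:3466000-3466299 for GAPLINC and chr11:65498795-65499094 for the second start site of MALAT1.
PCGEM1: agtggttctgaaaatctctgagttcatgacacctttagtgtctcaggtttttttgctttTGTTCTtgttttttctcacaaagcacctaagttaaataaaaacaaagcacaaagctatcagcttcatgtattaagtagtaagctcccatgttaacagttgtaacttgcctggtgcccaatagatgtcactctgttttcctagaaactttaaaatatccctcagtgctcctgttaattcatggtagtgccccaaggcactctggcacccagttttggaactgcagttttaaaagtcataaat
PCA3: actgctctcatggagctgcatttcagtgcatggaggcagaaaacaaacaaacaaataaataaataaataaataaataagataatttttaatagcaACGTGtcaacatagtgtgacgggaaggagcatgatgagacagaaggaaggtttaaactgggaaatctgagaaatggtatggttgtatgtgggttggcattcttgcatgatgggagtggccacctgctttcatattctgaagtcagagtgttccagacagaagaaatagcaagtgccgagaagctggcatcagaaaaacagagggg
MALAT1: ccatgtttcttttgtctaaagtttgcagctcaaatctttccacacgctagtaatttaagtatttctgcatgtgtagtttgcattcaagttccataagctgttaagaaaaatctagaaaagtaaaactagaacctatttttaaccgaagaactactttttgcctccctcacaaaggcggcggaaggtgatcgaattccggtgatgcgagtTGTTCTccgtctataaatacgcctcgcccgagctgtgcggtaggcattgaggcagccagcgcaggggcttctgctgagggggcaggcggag
GAPLINC: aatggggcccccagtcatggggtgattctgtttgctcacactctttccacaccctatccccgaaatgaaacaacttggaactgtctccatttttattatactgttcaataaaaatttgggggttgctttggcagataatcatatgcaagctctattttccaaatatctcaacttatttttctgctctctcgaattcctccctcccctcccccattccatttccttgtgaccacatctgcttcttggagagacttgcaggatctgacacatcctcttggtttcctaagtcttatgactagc

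The hexamer was found once in PCGEM1, 191 bases before the start, and once at the second start site of MALAT1, 41 bases before the start. It occurs in 14.8% of 35097 RefSeq promoters of this length, so a match is common. ACGTG was found once in PCA3, 155 bases before the start, and occurs in 21.4% of promoters. Neither motif was found in the windows of DRAIC, GAPLINC or the other start site of MALAT1. The full palindromic element (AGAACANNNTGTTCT, in 0.00285% of promoters) and the forkhead motif TGTTTAC (in 3.42%) were found in none of the windows. These matches are descriptions of the letters in the windows.

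In GRCh38, PCA3 spans chr9:76764436-76787569, PCGEM1 chr2:192749845-192776899, SCHLAP1 chr2:180692104-180916939, ARLNC1 chr16:80828735-80892596 and GAPLINC chr18:3466250-3478978, per RefSeq. PCAT14 is at chr22:23538102-23547306 and DRAIC at chr15:69561720-69571440. MALAT1 (chr11:65497738-65506516) and NEAT1 (chr11:65422798-65445540) are neighbours, and PCAT1 is on chromosome 8.

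TPM of a tumour were set over human and mouse transcripts together, and the human symbols took 12.1% to 97.5% of the whole (median 89.9%). POST-CX mouse 91 (27.9%) and ENZR mouse 87 (12.1%) had the lowest totals, so all human TPM of these tumours are scaled down, and mouse 87 gave 9693 symbols at 1 TPM or more against a median of 15350 over the 54 tumours. Luminal markers were present as labelled: 8 of 8, among them KLK3, KLK2, FOLH1, HOXB13, KRT8 and KRT18, had a median of at least 1 TPM in every group, while the basal markers TP63 and KRT5 had a median of 0 in every group. The remaining basal marker, KRT14, had a median of at least 1 TPM in PRE-CX, CRPC and ENZS. In ENZS against PRE-CX 2 luminal markers were higher and 2 lower, against 30.3% and 8.18% of all genes, with KLK2 at -2.38. KRT14, the 1 basal marker tested, did not pass there. It was lower in ENZR against CRPC (-1.42) and in the difference between the relapse steps (-2.20).

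Levels ranged widely among the lncRNAs. TPM are corrected for transcript length, but not for capture by poly(A) selection. MALAT1 and the long NEAT1 isoform lack a regular tail, so the levels given are those captured. NEAT1 had a median of 518 TPM over all tumours and MALAT1 383 TPM, higher by the mean over tumours than 99.7% and 99.6% of all symbols. SCHLAP1 followed at 39.7 TPM, DRAIC at 12.2 TPM, PCGEM1 at 11.2 TPM, PCAT1 at 5.2 TPM, GAPLINC at 3.7 TPM and ARLNC1 at 1.5 TPM. PCA3 (0.645 TPM) and PCAT14 (0.515 TPM) were near the floor, reaching 1 TPM in only 15 and 13 of the 54 tumours. NEAT1, MALAT1 and SCHLAP1 were above 1 TPM in every tumour.

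**Figure D1:**
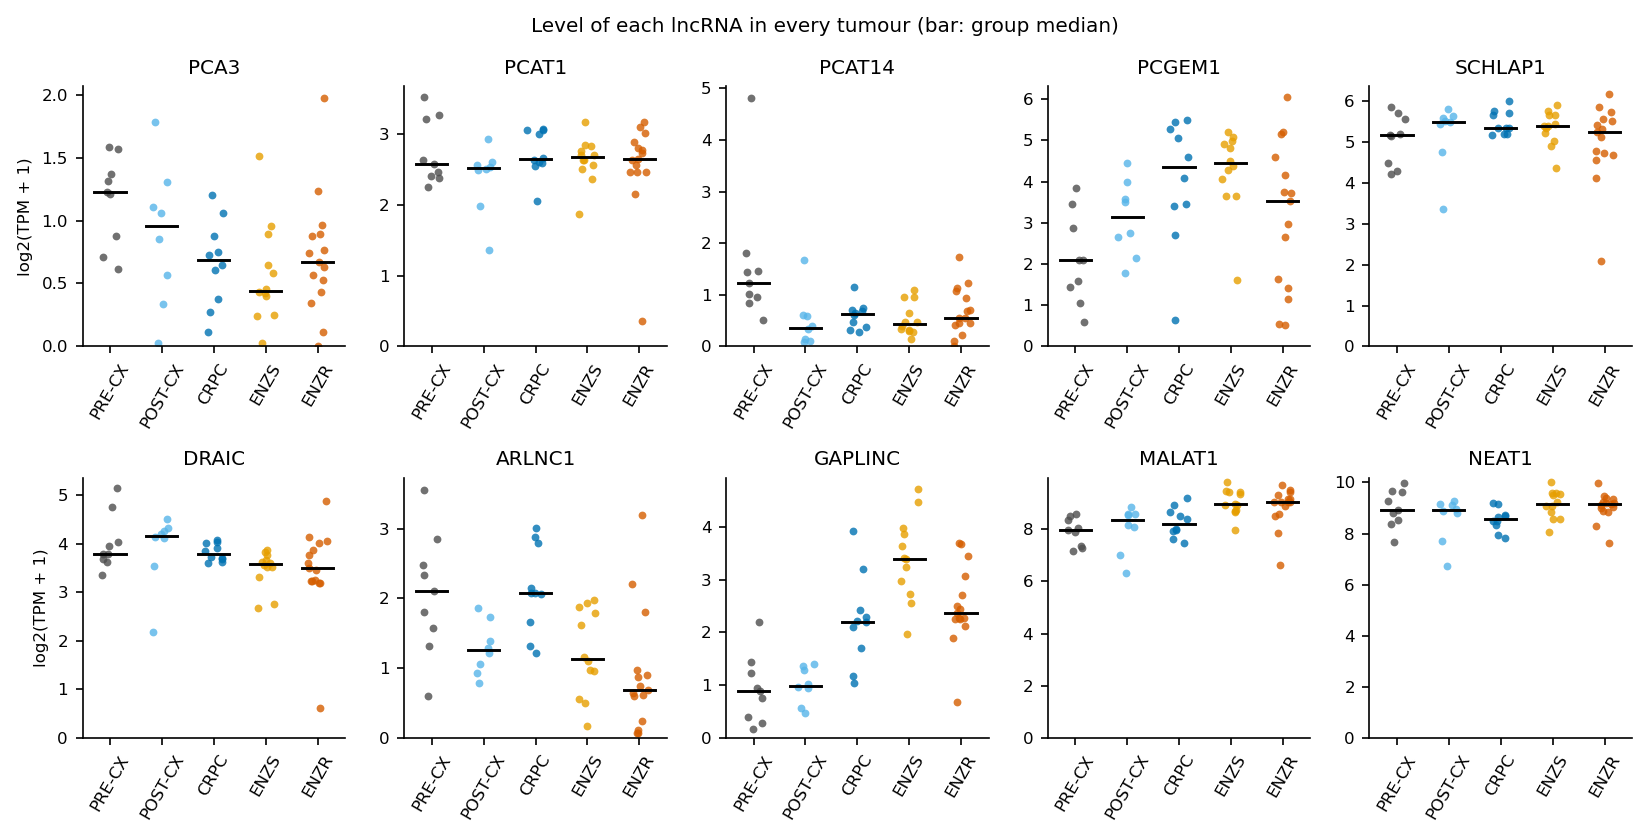
Level of each of the 10 lncRNAs as log2(TPM + 1), 1 point per tumour, in the 5 groups, with the group median as a bar. PCGEM1 and GAPLINC spread over several log2 units, the PRE-CX tumour at 26.94 TPM stands alone for PCAT14, and PCAT1 and SCHLAP1 have similar medians in all groups.

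The comparison with the most calls was ENZS against PRE-CX. There, MALAT1 and PCGEM1 were higher and PCA3, PCAT14 and ARLNC1 were lower (2 higher and 3 lower of 9). PCAT14 is counted although it passed the filter on low values only through PRE-CX, as described below. A difference is called, or passed, here at an adjusted p under 0.05 from limma (Benjamini-Hochberg over all genes, log2(TPM + 1), 1 fit of the 5 groups). Of all 17131 genes, 30.3% passed as higher and 8.18% as lower in that comparison. The median difference of the 9 lncRNAs was -0.11 on the log2 scale, against 0.26 over all genes. In bulk tumours, fewer cells of a type and less RNA per cell cannot be told apart.

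At ENZR, 1 of 9 was higher (MALAT1) and 2 were lower (PCAT14, ARLNC1) than in PRE-CX, against 17.6% of all genes higher and 11.5% lower, and the median was -0.20 against 0.07 over all genes. After castration alone (POST-CX), none was higher and PCAT14 was lower, against 1.66% and 2.67% of all genes. At CRPC, PCGEM1 was higher and PCAT14 lower, against 5.55% and 1.87%. These 4 comparisons share the PRE-CX tumours, so their results are not independent. The PCAT14 calls among them also depend on the filter on low values, which PCAT14 passed only through PRE-CX. PCAT1, SCHLAP1, DRAIC and NEAT1 passed in none of the 10 comparisons between groups with these settings.

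**Figure D2:**
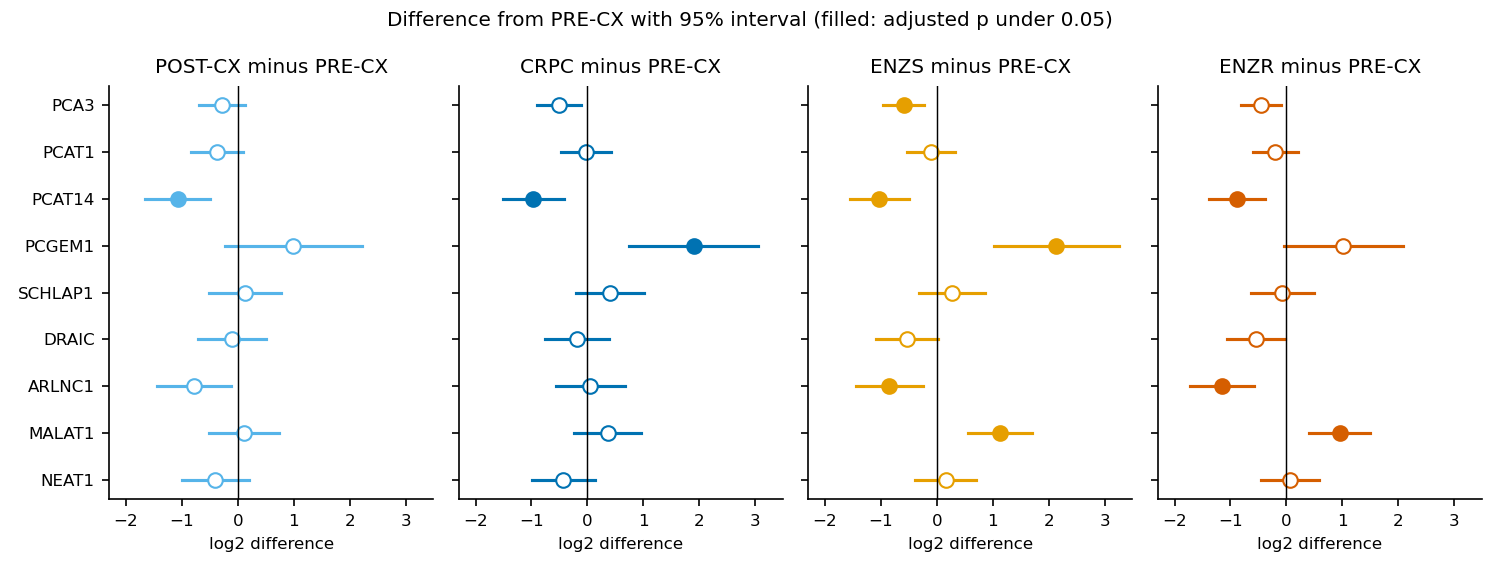
Difference of each tested lncRNA from PRE-CX in the 4 other groups, on the log2(TPM + 1) scale, with its 95% interval from limma. Filled points passed at an adjusted p under 0.05: PCAT14 does in every panel, PCGEM1 in 2 panels (CRPC 1.90, ENZS 2.14), and the intervals of PCAT1 and SCHLAP1 cross 0 throughout. PCAT14 passed the filter on low values only through PRE-CX, so its calls are not independent of the filter.

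PCGEM1 was the lncRNA with the largest called difference. In PRE-CX tumours it ranged from 0.51 to 13.46 TPM with a median of 3.26 TPM. In POST-CX tumours it lay between 2.44 and 20.82 TPM (median 8.11), in CRPC tumours between 0.55 and 43.89 TPM (median 19.7) and in ENZS tumours between 2.07 and 35.83 TPM (median 20.7). ENZR tumours covered almost the whole range, from 0.44 to 65.06 TPM (median 10.5). All groups overlapped, with 9 of 12 ENZS tumours and 6 of 10 CRPC tumours above every PRE-CX tumour.

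PCGEM1 rose by 2.14 ± 0.55 (SE) on the log2 scale in ENZS against PRE-CX (limma adjusted p = 0.0016, Benjamini-Hochberg). In CRPC against PRE-CX it rose by 1.90 ± 0.58 (limma adjusted p = 0.0304). The CRPC call was lost when any 1 of 9 tumours was left out (CRPC mice 29, 36, 47, 78 and 89 and PRE-CX mice 4, 67, 111 and 112), with differences of 1.71 to 1.83 and adjusted p from 0.0531 to 0.0741. In ENZR against PRE-CX the difference was 1.02 ± 0.53 (limma adjusted p = 0.143), and in POST-CX against PRE-CX 0.99 ± 0.61 (limma adjusted p = 0.404). In order of the mean log2 level, PCGEM1 went from PRE-CX through POST-CX, ENZR and CRPC to ENZS, and no 2 neighbours in that order differed by the test. Over the 9 tested lncRNAs, the only neighbouring step that passed was that of PCAT14 from ENZR to PRE-CX, a call not independent of the filter on low values.

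MALAT1 was higher in both enzalutamide groups than in PRE-CX. It ranged from 141 to 385 TPM in PRE-CX (median 247), from 79.1 to 460 TPM in POST-CX (median 327) and from 176 to 592 TPM in CRPC (median 293). In ENZS it ranged from 250 to 895 TPM (median 498) and in ENZR from 97.9 to 824 TPM (median 530). In both enzalutamide groups 11 tumours were above every PRE-CX tumour, of 12 in ENZS and 15 in ENZR, and the lowest ENZR value was that of mouse 87, the tumour with the lowest human total.

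The MALAT1 difference from PRE-CX was 1.13 ± 0.28 in ENZS (limma adjusted p = 0.0012) and 0.95 ± 0.27 in ENZR (limma adjusted p = 0.0056), on the log2 scale. MALAT1 was also higher in ENZS than in POST-CX, by 1.02 ± 0.29 (limma adjusted p = 0.0107), a call that ended without POST-CX mouse 91 (0.78, adjusted p = 0.0606). With all tumours and TPM rescaled to the same human total, this difference was 0.78 and passed (limma adjusted p = 0.00537). Against CRPC, the ENZS difference was 0.77 ± 0.28 (limma adjusted p = 0.0682) and the ENZR difference 0.59 ± 0.26 (limma adjusted p = 0.243). Each passed when a tumour was left out: ENZS against CRPC without CRPC mouse 102 or ENZS mouse 17 (0.86 to 0.87, adjusted p 0.0382 to 0.0462), and ENZR against CRPC without ENZR mouse 87 (0.75, adjusted p = 0.0378). Without mouse 87, ENZR against POST-CX passed as well (adjusted p = 0.00368), where it was 0.85 ± 0.28 with all tumours (limma adjusted p = 0.0795).

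NEAT1, its chromosomal neighbour, passed in no comparison with the settings given above. Its median was 487 TPM in PRE-CX, 488 TPM in POST-CX, 383 TPM in CRPC, 569 TPM in ENZS and 569 TPM in ENZR, with overlapping ranges throughout (104 to 1043 TPM over all tumours). The ENZS difference from PRE-CX was 0.16 with a 95% interval of -0.39 to 0.70, and its sign turned when each tumour was centred on its median (-0.10). Against CRPC, NEAT1 was 0.59 higher in ENZS (unadjusted limma p = 0.0289, adjusted p = 0.159) and 0.50 higher in ENZR (unadjusted limma p = 0.0493, adjusted p = 0.318). Both passed with TPM rescaled to the same human total (0.66 and 0.79, limma adjusted p of 0.0181 and 0.00670) and without the tumours of lowest human total (0.59 and 0.61, adjusted p of 0.0376 and 0.0461), and so did both MALAT1 differences from CRPC.

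The ratio of MALAT1 to NEAT1 does not depend on the human total of a tumour; it was chosen after the values of both were seen. The ratio was below 1 in every PRE-CX tumour (0.314 to 0.791, median 0.396) and in every POST-CX tumour (0.568 to 0.845, median 0.667). It lay between 0.430 and 1.18 in CRPC (median 0.908), between 0.324 and 1.85 in ENZS (median 1.03) and between 0.487 and 1.48 in ENZR (median 0.908). In these groups, 3 of 10, 6 of 12 and 7 of 15 tumours had a higher TPM for MALAT1 than for NEAT1. Poly(A) selection may capture these RNAs unequally, so a ratio of 1 in TPM need not be equal abundance. Groups overlapped, but all 8 POST-CX, all 10 CRPC and all 15 ENZR tumours, and 11 of 12 ENZS tumours, were above the PRE-CX median.

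The mean log2 ratio was -1.08 ± 0.48 (SD, n = 9) in PRE-CX. It was higher by 0.51 in POST-CX (two-sided exact permutation test, adjusted p = 0.0262), by 0.80 in CRPC (0.00682), by 0.97 in ENZS (0.00653) and by 0.89 in ENZR (0.00400), adjusted over 7 comparisons. Between CRPC, ENZS and ENZR the adjusted p was 0.659 or above by permutation. The adjustment does not cover the choice of the ratio after the values were seen. The ratios of CRPC, ENZS and ENZR were not tested against POST-CX. Leaving out each tumour in turn kept the exact permutation p between 0.000167 and 0.0292 for the 4 comparisons with PRE-CX, and without the tumours of lowest human total the adjusted p was 0.0456 in POST-CX (exact permutation test).

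**Figure D3:**
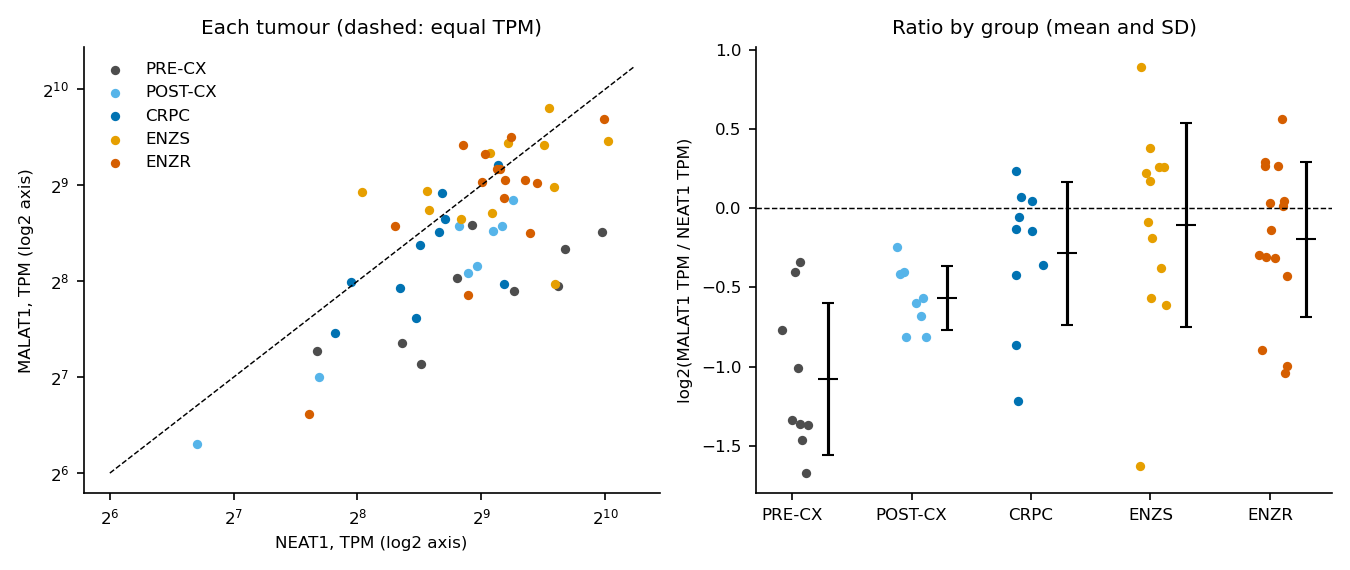
Left: MALAT1 against NEAT1 in TPM, both on log2 axes, 1 point per tumour, with a dashed line at equal TPM. Right: log2 of their ratio by group, with mean and SD beside the points. No PRE-CX or POST-CX tumour lies above the line, while 16 tumours of the other groups do.

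Few genes for proteins of the bodies in which these RNAs reside passed. Of 16 genes of paraspeckle proteins, all tested, 0 passed in any comparison (limma), with 0 at an unadjusted p under 0.05 in ENZS and 1 in ENZR against PRE-CX, and their median difference in ENZS against PRE-CX was -0.05. Of 13 genes of nuclear speckle proteins, SRRM1 rose (0.73 ± 0.25) and SRSF7 fell (-0.61 ± 0.23) in ENZS against PRE-CX, with limma adjusted p of 0.0177 and 0.0289. Over all genes, 30.3% passed as higher and 8.18% as lower in ENZS against PRE-CX, and 17.6% and 11.5% in ENZR. Because the libraries select poly(A) tails, 11 RNAs that normally have none, such as RN7SK and RMRP, were read beside MALAT1. Of these, 7 were tested and 0 passed in any comparison (limma), with 0 at an unadjusted p under 0.05 in ENZS and in ENZR against PRE-CX and a median difference of 0.29 in ENZS and 0.27 in ENZR against PRE-CX. The summed level of the 11 RNAs ranged from 130 to 2333 TPM within CRPC alone. Whether capture of MALAT1 differed between groups was not tested.

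ARLNC1 was lower in the enzalutamide groups than in PRE-CX and in CRPC. It ranged from 0.52 to 10.79 TPM in PRE-CX (median 3.29), from 0.72 to 2.65 TPM in POST-CX (median 1.39) and from 1.33 to 7.09 TPM in CRPC (median 3.23). In ENZS it ranged from 0.12 to 2.92 TPM (median 1.19). In ENZR, 14 tumours lay between 0.05 and 3.60 TPM and mouse 75 was at 8.16 TPM (median 0.61). Ranges overlapped, with every POST-CX and ENZS tumour below the PRE-CX median and 12 of 15 ENZR tumours below every CRPC tumour.

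The ARLNC1 difference was -1.21 ± 0.28 for ENZR against CRPC (limma adjusted p = 0.00764) and -1.16 ± 0.29 for ENZR against PRE-CX (limma adjusted p = 0.00144). For ENZS against PRE-CX it was -0.85 ± 0.30 (limma adjusted p = 0.0195), which did not pass without PRE-CX mouse 58, the highest of its group (-0.67, adjusted p = 0.0721). For ENZS against CRPC it was -0.91 ± 0.29 (limma adjusted p = 0.0365). That call was lost without any 1 of 11 tumours (CRPC mice 29, 43, 47, 78, 102 and 107 and ENZS mice 49, 56, 57, 79 and 80), with differences of -0.92 to -0.81 and adjusted p from 0.0504 to 0.0821. With the pseudocount of 1 TPM these values understate the change of a gene near 1 TPM: with 0.1 TPM, ENZR against CRPC was -2.18 (limma adjusted p = 0.0102). ENZS against CRPC was then -1.42 and no longer passed (limma adjusted p = 0.0717), nor did it with no filter. CRPC exceeded POST-CX by 0.84 ± 0.32 (unadjusted limma p = 0.0114, adjusted p = 0.647).

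Of 14 tested androgen-induced genes, 11 were lower in POST-CX, 6 in CRPC, 12 in ENZS and 13 in ENZR than in PRE-CX, and none was higher. Over all genes, 2.67%, 1.87%, 8.18% and 11.5% were lower, in the same order. SLC45A3 and HPGD, named as those of largest difference, fell by 3.45 and 3.43 in ENZS. KLK3, the gene of prostate-specific antigen, differed by 0.09 ± 0.60 in CRPC (limma adjusted p = 0.970), by -1.85 ± 0.63 in POST-CX (0.0825) and by -1.13 ± 0.57 in ENZS (limma adjusted p = 0.111) and fell by 2.04 in ENZR (limma adjusted p = 0.00315). PCGEM1 and ARLNC1, both androgen-responsive, thus differed from PRE-CX in opposite directions in ENZS.

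PCAT14 had a lower median in every group of castrated mice than in PRE-CX, at levels mostly under 1 TPM. Its calls are not independent of the filter on low values, as the next paragraph gives. In PRE-CX 8 tumours lay between 0.43 and 2.50 TPM and mouse 112 was at 26.94 TPM (median 1.33). The range was 0.06 to 2.18 TPM in POST-CX (median 0.285), 0.22 to 1.21 TPM in CRPC (median 0.545), 0.10 to 1.12 TPM in ENZS (median 0.35) and 0 to 2.30 TPM in ENZR (median 0.47). All 10 CRPC and all 12 ENZS tumours were below the PRE-CX median.

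PCAT14 passed the filter on low values only through PRE-CX, where 6 tumours reached 1 TPM against 7 in all other groups together, so its calls in the filtered table are not independent of the filter. On the log2 scale PCAT14 fell by 1.07 in POST-CX, 0.97 in CRPC, 1.03 in ENZS and 0.88 in ENZR, with limma adjusted p of 0.0180, 0.0186, 0.00137 and 0.00561. PRE-CX mouse 112 carried much of this: without it the differences were -0.67, -0.56, -0.63 and -0.48, with adjusted p of 0.0460, 0.0671, 0.00533 and 0.0358, so the CRPC call was lost. A fit of only the 2 groups compared did not give a pass for POST-CX (adjusted p = 0.0835) or CRPC (0.0598). With no filter the limma adjusted p was 0.0429 in POST-CX, 0.0463 in CRPC, 0.00418 in ENZS and 0.0150 in ENZR.

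PCA3 was lower in ENZS. It ranged from 0.53 to 2.00 TPM in PRE-CX (median 1.34), from 0.02 to 2.44 TPM in POST-CX (median 0.95), from 0.08 to 1.30 TPM in CRPC (median 0.61), from 0.02 to 1.86 TPM in ENZS (median 0.36) and from 0 to 2.92 TPM in ENZR (median 0.59). Of the ENZS tumours, 8 of 12 ENZS tumours were below every PRE-CX tumour, and all 10 CRPC tumours were below the PRE-CX median. The ENZS difference was -0.60 ± 0.19 (limma adjusted p = 0.00904). In ENZR it was -0.45 ± 0.18 (limma adjusted p = 0.0509), and it passed when any 1 of 7 tumours was left out (ENZR mice 72, 75, 94 and 104 and PRE-CX mice 5, 67 and 9), with -0.54 to -0.46 and adjusted p from 0.0117 to 0.0487.

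SCHLAP1 and PCAT1 had similar medians in all groups. For SCHLAP1 they were 35.1 TPM in PRE-CX, 44.2 TPM in POST-CX, 39.7 TPM in CRPC, 41.1 TPM in ENZS and 36.7 TPM in ENZR. Its range was 35.3 to 63.6 TPM in CRPC, but 9.25 to 54.9 TPM in POST-CX and 3.22 to 70.8 TPM in ENZR, where mice 91 and 87, of lowest human total, were lowest. The ENZS difference from PRE-CX was 0.28 (95% interval -0.31 to 0.87). PCAT1 had medians of 4.95, 4.74, 5.28, 5.37 and 5.29 TPM in the same order, and its ENZS difference from PRE-CX was -0.11 (95% interval -0.54 to 0.32).

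DRAIC had a median of 12.8 TPM in PRE-CX, 16.9 TPM in POST-CX, 12.9 TPM in CRPC, 10.98 TPM in ENZS and 10.4 TPM in ENZR. It ranged from 9.19 to 34.2 TPM in PRE-CX, from 11.2 to 15.8 TPM in CRPC and from 5.35 to 13.6 TPM in ENZS, and 10 of 12 ENZS tumours were below the PRE-CX median. Its difference from PRE-CX was -0.54 ± 0.28 in ENZS (limma adjusted p = 0.115) and -0.54 ± 0.26 in ENZR (limma adjusted p = 0.115). The ENZS difference passed when every tumour was rescaled to the same human total (-0.51, adjusted p = 0.0130), and the ENZR difference without ENZR mouse 75 (-0.64, adjusted p = 0.0481). Against POST-CX, DRAIC differed by -0.44 in ENZS and by -0.44 in ENZR (limma adjusted p of 0.265 and 0.480). Both passed with TPM rescaled to the same human total (-0.65 and -0.52, limma adjusted p of 0.00712 and 0.0405).

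GAPLINC, known as a lncRNA raised in gastric cancer, was lowest before and just after castration. It ranged from 0.12 to 3.56 TPM in PRE-CX (median 0.85) and from 0.39 to 1.63 TPM in POST-CX (median 0.985). CRPC tumours lay between 1.06 and 14.17 TPM (median 3.62), ENZS tumours between 2.93 and 25.21 TPM (median 9.57) and ENZR tumours between 0.60 and 11.98 TPM (median 4.19). Every ENZS tumour was above every POST-CX tumour, and 11 of 12 were above every PRE-CX tumour. These values chose the gene, so its differences are descriptions: 2.49 for ENZS, 1.59 for ENZR and 1.30 for CRPC against PRE-CX, and 0.08 for POST-CX.

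Between the relapse steps GAPLINC moved in opposite directions, 1.22 higher in CRPC than in POST-CX and 0.90 lower in ENZR than in ENZS, which makes a difference between the steps of -2.13. The highest CRPC tumour, mouse 47 at 14.17 TPM, lay below only 3 of the 12 ENZS tumours. ENZR mouse 87, the lowest of its group, is the tumour of lowest human total, and the next ENZR value was 2.73 TPM.

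No lncRNA of the 9 tested passed in either relapse step. For CRPC against POST-CX, 0% of all genes passed as higher and 0% as lower by limma, with 1154 genes and 1 lncRNA (ARLNC1) at an unadjusted p under 0.05. For ENZR against ENZS, 0% passed as higher and 0.0175% as lower, with 1914 genes and 1 lncRNA (PCGEM1, -1.12, unadjusted p = 0.0251) at an unadjusted p under 0.05. In the test of the difference between the steps, 0% passed as higher and 0.187% as lower, and 0 of 9 lncRNAs did. At an unadjusted p under 0.05 there were 3352 genes and 2 lncRNAs, PCGEM1 with -2.03 ± 0.77 (limma adjusted p = 0.178) and ARLNC1 with -1.14 ± 0.42 (limma adjusted p = 0.169). The median over the 9 was -0.43, against -0.37 over all genes.

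The remaining comparisons gave single calls. ENZS against CRPC had 1 lower (ARLNC1) against 6.21% of all genes higher and 2.71% lower, and ENZR against CRPC had 1 lower (ARLNC1) against 0.584% and 2.52%. ENZS against POST-CX had 1 higher (MALAT1) against 17.8% and 1.89%. ENZR against POST-CX had 0 of 9 against 2.24% and 1.16%, with 1 lncRNA (MALAT1) and 2611 genes at an unadjusted p under 0.05 (limma).

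Of 20 other prostate lncRNAs listed for comparison, 10 could be tested. In ENZS against PRE-CX, 3 were higher and 1 lower, led by PCAT7 (0.78 ± 0.21, limma adjusted p = 0.00297) and SOCS2-AS1 (0.74 ± 0.26, limma adjusted p = 0.0197), and in ENZR 2 were higher and 2 lower. Over all genes 30.3% were higher and 8.18% lower in ENZS, and 17.6% and 11.5% in ENZR, so the share of this list in ENZS was near that of all genes. Of 24 widely expressed lncRNAs, 18 could be tested: 4 rose and 6 fell in ENZS, and 3 rose and 6 fell in ENZR. CRNDE rose by 1.90 in ENZS, and GAS5, the host of small nucleolar RNAs, fell by 1.08. The medians of the lists were 0.44 and 0.10 in ENZS, against 0.26 over all genes.

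Cell division and hypoxia genes moved as well. All 12 division genes were lower in ENZS and in ENZR than in PRE-CX, led by RRM2 (-3.70 in ENZS) and UBE2C (-3.58), and MKI67, a marker of dividing cells, fell by 2.29 in ENZS. Of 11 tested hypoxia genes, 9 were lower in POST-CX, and 1 was higher and 4 lower in ENZS, with LDHA at -1.51 and PDK1 at -1.34. Over all genes, 2.67% were lower in POST-CX, 8.18% in ENZS and 11.5% in ENZR than in PRE-CX, and 30.3% were higher in ENZS.

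Reads assigned to human genes that mark fibroblasts also rose. Of 5 such markers, 4 were tested, and COL3A1, DCN and LUM were higher in CRPC, ENZS and ENZR than in PRE-CX, while COL1A1 did not pass. Over all genes, 5.55%, 30.3% and 17.6% were higher, in the same order. LUM and COL3A1 rose by 2.92 and 2.89 in ENZS (limma adjusted p of 7.3e-05 and 2e-07). Their summed level ranged from 3.78 to 13.1 TPM in PRE-CX, 4.28 to 23.5 in POST-CX, 8.53 to 88.2 in CRPC, 16.0 to 216 in ENZS and 5.47 to 75.8 in ENZR, and COL1A2 had a median of 0.07 TPM or less in every group. Of 5 blood markers only CD68 was tested, higher in ENZS by 1.27, and PTPRC had a median of 0.03 TPM or less in every group. Of 4 endothelial markers only VWF was tested, lower in ENZS by 0.98, and of 4 neuroendocrine markers 2 were tested and SYP was higher in ENZS, by 0.64. The implanted cells were LNCaP, so values of fibroblast, blood and endothelial markers are not levels of human cells of those types. Whether these reads came from LNCaP cells or from mouse cells was not tested. The part of the marker genes in the lncRNA differences was not tested.

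Tumours of 1 group still differed in these lncRNAs, and for 3 of them the gene that varied most like the lncRNA lay close to it on its chromosome. Likeness was Pearson's r over 54 tumours on log2(TPM + 1) after each tumour was rescaled to the same human total and its group mean was removed. The values of 1 tumour share a library and its scaling, so r is a description and carries no p. For each lncRNA, 17130 genes were ranked.

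PCGEM1 was most like TMEFF2 (r = 0.86, Spearman's rho = 0.80), the nearest protein-coding gene on its left at 555 kb, which encodes a transmembrane protein of prostate and brain. Within groups, r was 0.74 in PRE-CX, 0.78 in POST-CX, 0.87 in CRPC, 0.81 in ENZS and 0.92 in ENZR, and over all tumours without the 2 farthest from the median it was 0.86. In ENZS rho was lower, at 0.45. TMEFF2 ranged from 2.82 TPM in ENZR mouse 75, where PCGEM1 was at 0.46 TPM, to 828 TPM in CRPC mouse 29, where PCGEM1 was at 42.54 TPM. The pseudogene RPS17P8, which overlaps PCGEM1, had rank 4 (r = 0.69), and SLC39A10, the nearest protein-coding gene on the right at 2836 kb, had rank 1402 (r = 0.40). Group differences of the pair were unlike against PRE-CX, where TMEFF2 fell by 1.62 in ENZR against PRE-CX (limma adjusted p = 0.0102) and differed by -0.43 ± 0.52 in ENZS (limma adjusted p = 0.542), the comparison in which PCGEM1 rose by 2.14. In ENZR against ENZS they had the same sign, -1.19 ± 0.46 for TMEFF2 and -1.12 ± 0.49 for PCGEM1 (limma adjusted p of 0.355 and 0.404), as in ENZR against CRPC, -1.63 ± 0.48 and -0.88 ± 0.51 (0.0464 and 0.422).

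PCA3 was most like PRUNE2, in which it lies (r = 0.72, rho = 0.63). Within groups r was 0.73 in PRE-CX, 0.75 in POST-CX, 0.85 in CRPC, 0.70 in ENZS and 0.74 in ENZR, but in ENZS it rested on 2 tumours (0.21 without them). PRUNE2 was far more abundant, with medians of 136 TPM in PRE-CX, 106 TPM in POST-CX, 97.3 TPM in CRPC, 79.9 TPM in ENZS and 66.7 TPM in ENZR. PRUNE2 exceeded PCA3 by 102 to 157 times in the group medians. The libraries kept strand, but whether counting used it is not given in the sources used here, so reads of this antisense pair may be shared. PRUNE2 differed from PRE-CX by -0.81 ± 0.36 in ENZS (limma adjusted p = 0.0653) and by -0.97 ± 0.34 in ENZR (limma adjusted p = 0.0247). GCNT1, the nearest protein-coding gene on the left at 257 kb, had rank 8 (r = 0.58) and fell by 1.69 in ENZS and 1.65 in ENZR.

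ARLNC1 was most like CENPN (r = 0.72, rho = 0.67), a centromere protein gene 0.115 Mb away. CMC2, its nearest protein-coding gene on the right at 73.9 kb, had rank 8 (r = 0.59), and CDYL2, on the left at 23.7 kb, had rank 40 (r = 0.51). Within groups r with CENPN was 0.80 in PRE-CX, 0.39 in POST-CX, 0.53 in CRPC, 0.81 in ENZS and 0.82 in ENZR (0.39 there without the 2 farthest tumours). CENPN fell by 1.52 in POST-CX, 1.55 in ENZS and 1.84 in ENZR against PRE-CX, with limma adjusted p of 0.0296, 0.00138 and 0.000148, and CMC2 differed by -0.93, -0.78 and -1.04 (0.0390, 0.0109 and 0.000683). With KLK3, r was 0.51 over all tumours, 0.61 in PRE-CX, 0.20 in POST-CX, 0.83 in ENZS and 0.63 in ENZR, but -0.76 in CRPC.

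**Figure D4:**
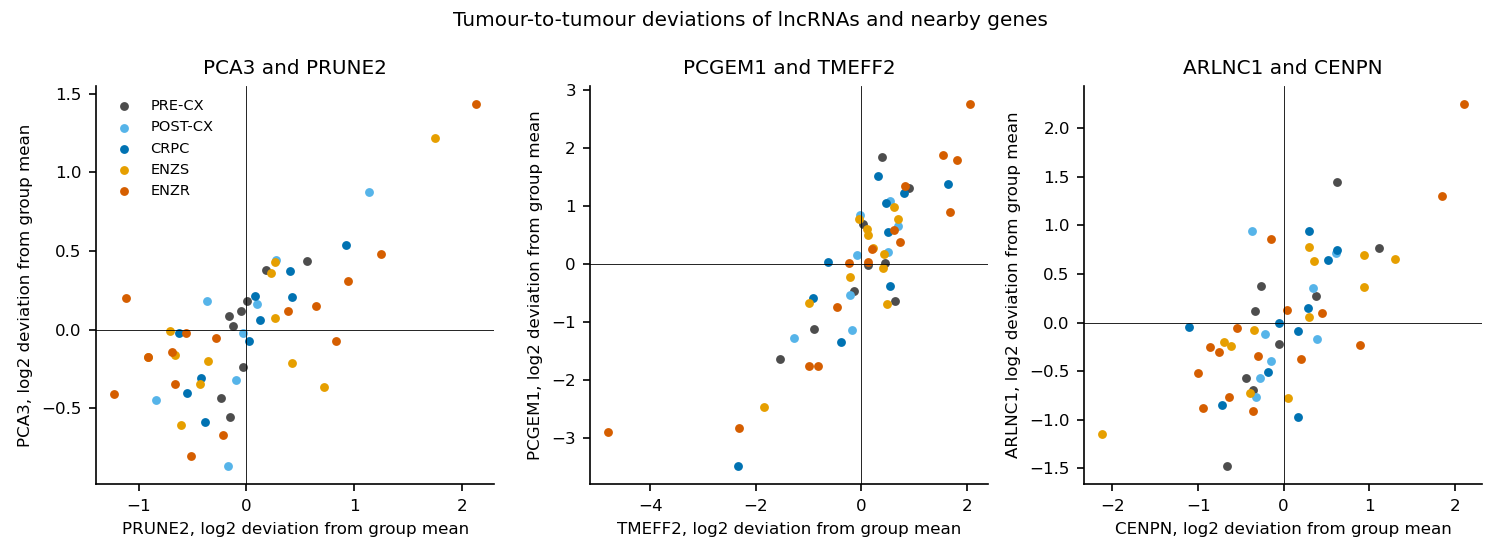
Deviation of PCA3, PCGEM1 and ARLNC1 from their group mean (log2 scale, rescaled TPM) against the deviation of a nearby gene, 1 point per tumour, coloured by group. Points rise together in all 3 panels, with r of 0.72 for PRUNE2, 0.86 for TMEFF2 and 0.72 for CENPN.

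Counted over the 10 most alike genes that have a RefSeq position, ARLNC1 had 3 within 5 Mb (CENPN, CMC2 and ATMIN), PCGEM1 had 2 and PCA3 had 2, while the other 7 lncRNAs had 0. Within 5 Mb lay 38, 39 and 22 of the 14090 genes with a position. SCHLAP1 had 6 of its 10 on its own chromosome but none within 5 Mb, against 6.31% of genes on that chromosome. Being near was not enough: UBE2E3, 63.4 kb from SCHLAP1 and at a median of 240 TPM, had r = -0.16, and TGIF1, 6.27 kb from GAPLINC, had r = 0.10. FRMD8, the protein-coding gene on the left of the MALAT1 and NEAT1 pair, had r = 0.10 with MALAT1 and r = 0.40 with NEAT1. RPLP1 (r = 0.15) and TLE3 (r = 0.19) beside DRAIC, LRATD2 beside PCAT1 (r = 0.03), BCR beside PCAT14 (r = -0.08) and CWC22 beside SCHLAP1 (r = 0.24) were likewise far down the ranking.

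For the other lncRNAs none of the 3 most alike genes that have a position lay within 5 Mb. MALAT1 was most like AC233968.1 (r = 0.77), GOLGA6L9 (0.75) and the splicing factor gene LUC7L2 (0.75), and least like PTRHD1 (-0.63). NEAT1 was most like CCDC84 (0.71), USP3 (0.70) and GOLGA6L9 (0.69), and least like KRT14 (-0.63). GAPLINC was most like SELENOT (0.71), CREM (0.67) and COX17 (0.66), and least like PFKL (-0.68), an enzyme of glycolysis. PCAT14 was most like TMEM121B (0.66), which lies 6.42 Mb away, PCAT1 like PLCXD2 (0.66), SCHLAP1 like AC093462.1 (0.61) and DRAIC like LCLAT1 (0.61).

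The third places and the lowest of the remaining lists were of similar size. PCA3 was followed by IRF2BP2 (0.63) and ZMYND10 (0.61) and was least like QKI (-0.52). PCGEM1 was followed by WNT3 (0.70) and AC022034.3 (0.70) and was least like PGC (-0.62). ARLNC1 was followed by AC092718.4 (0.70) and AC018865.1 (0.63) and was least like SELENBP1 (-0.65). PCAT1 (RRP15 0.61, CHAC2 0.61, TRPM4 -0.58), PCAT14 (CREB3L4 0.61, PEX10 0.60, BORCS8-MEF2B -0.56), SCHLAP1 (GMNN 0.58, GULP1 0.58, PDE4B -0.52) and DRAIC (ZNF530 0.60, PDZD2 0.60, KLF4 -0.58) had the values given in brackets.

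Pairs of the 10 lncRNAs ranged in r from -0.47 to 0.56. MALAT1 and NEAT1 were the most alike pair (r = 0.56, rho = 0.57), with r within groups from 0.24 in ENZS to 0.87 in POST-CX, and NEAT1 still ranked only 173 among the genes like MALAT1. ARLNC1 and PCAT14 followed (r = 0.41), and ARLNC1 was lowest with NEAT1 (r = -0.47). PCGEM1 and SCHLAP1, both on chromosome 2, had r = 0.37, but -0.39 within POST-CX. MKI67 had r = -0.46 with GAPLINC and 0.38 with PCAT14. The number of genes with r beyond 0.5 in either direction was 521 for MALAT1, 391 for PCGEM1 and 360 for NEAT1, but 29 for PCAT14 and 37 for SCHLAP1.

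**Figure D5:**
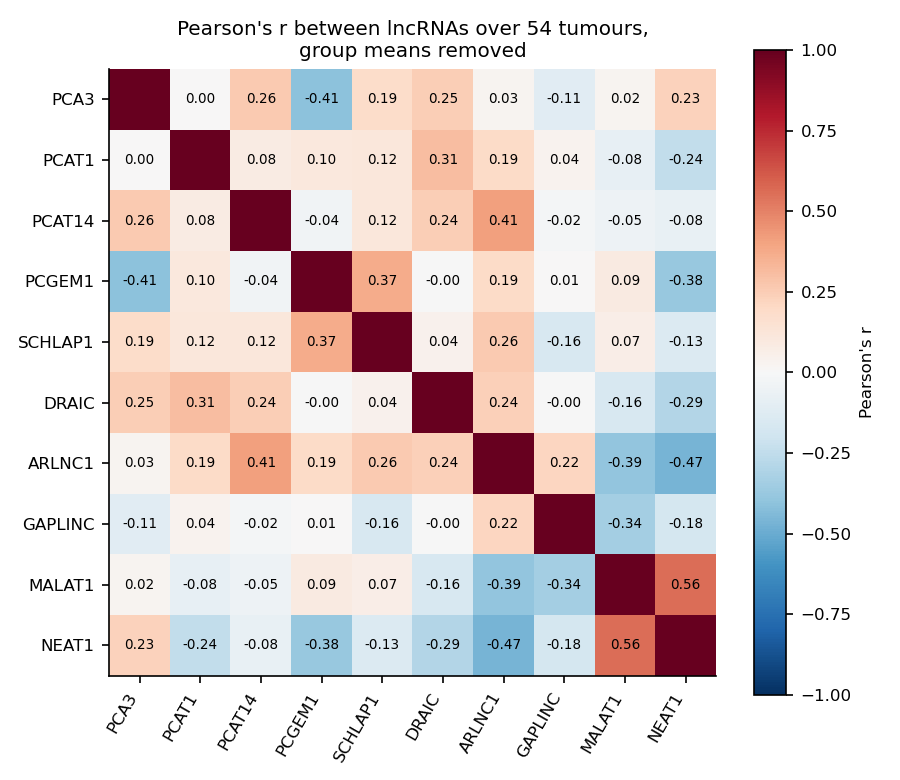
Pearson's r between each pair of the 10 lncRNAs over 54 tumours, on log2 values of rescaled TPM with group means removed (colour scale from -1 to 1). The MALAT1 and NEAT1 pair is the darkest red at 0.56, and ARLNC1 with NEAT1 is the darkest blue at -0.47.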

How the data were processed

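The authors prepared libraries that keep strand from poly(A)-selected RNA of each tumour. Reads were aligned to human GRCh38 and mouse GRCm38 together (STAR 2.7.2b) and quantified with RSEM 1.3.3, after FastQC 0.11.9 and Trim Galore 0.6.5, per the submitters' processing notes and the study's methods. The deposited values are TPM per human gene symbol. TPM hold no read depth, so no counting interval is given, and the precision rests on the spread between tumours.

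The lncRNAs and gene lists were chosen with earlier results of these data known, and GAPLINC on its own values. Groups came from the labels. Log2(TPM + 1) values of the 17131 of 60642 symbols that reached 1 TPM in 8 or more tumours were fitted in 1 model of the 5 group means over 54 tumours with limma 3.58.1 (trend) in R 4.3.3. P-values were adjusted over all genes by Benjamini-Hochberg. The code was tested on simulated data. The MALAT1 to NEAT1 ratio was tested by exact permutation, or with 100000 resamples where both groups had 10 or more tumours. Likeness was Pearson's r after rescaling to the human total and removing group means. Named genes were the lncRNAs, their overlapping and nearest protein-coding genes, the 3 most and the 1 least alike genes, KLK3, MKI67, and the 2 of largest passing difference per list in ENZS against PRE-CX; in ENZR against ENZS no list gene passed. Some items this rule names are not reported here. The ratio was added after the values were seen. Alternatives were rescaled TPM, median centring, a pseudocount of 0.1, no filter, a filter at 27 tumours, only the groups compared, leaving out the tumours of lowest human total, and leaving out each tumour. Promoters and positions came from RefSeq (GRCh38.p14).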

Additional observations from a re-analysis of the deposited data

Results flagged for a closer look

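Of 30 groups of a lncRNA with 10 or fewer tumours, 6 held a tumour that stood apart from its group by Dixon's criterion on the log2 scale, where chance gives about 1 in 20 groups. PCAT14 accounted for 3 of them, with PRE-CX mouse 112 highest at 26.94 TPM, POST-CX mouse 99 highest at 2.18 TPM and CRPC mouse 78 highest at 1.21 TPM. POST-CX mouse 91, whose human total was 27.9%, was lowest for SCHLAP1 at 9.25 TPM and for DRAIC at 3.53 TPM. CRPC mouse 43 was lowest for PCAT1 at 3.16 TPM.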

How the results depend on the processing

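No paired analysis was possible because no mouse number is shared between groups. No called difference of a lncRNA changed sign under any alternative, while 17 of the 99 differences, none of them called and all of size 0.43 or less on the log2 scale, turned sign when TPM were rescaled or centred. Centring removed a median difference over all genes of 0.26 in ENZS against PRE-CX.

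The count of lncRNAs that passed moved as follows, and the cause was not tested unless said. With rescaled TPM it was 5 in ENZR against PRE-CX (3 as reported), 3 in ENZS against CRPC (1), 3 in ENZR against CRPC (1), 2 in ENZS against POST-CX (1) and 2 in ENZR against POST-CX (0). With median centring the same 5 counts were 5, 3, 3, 3 and 2. In ENZS against PRE-CX (5 as reported) the count was 6 with rescaled TPM, 7 with centring, 6 with only the groups compared and 6 without the tumours of lowest human total, where DRAIC was gained each time and PCAT1 with centring. In CRPC against PRE-CX (2) it was 3 with centring and 3 without the tumours of lowest human total, and in ENZR against PRE-CX (3) it was 4 without them. Without the tumours of lowest human total, ENZS against CRPC gave 3, ENZR against CRPC 3, ENZS against POST-CX 2 and ENZR against POST-CX 1. A fit of only the groups compared gave 0 in POST-CX against PRE-CX (1 as reported), 4 in ENZS against CRPC and 2 in ENZS against POST-CX. A filter at 27 tumours, which leaves out PCA3 and PCAT14, gave 0 in POST-CX against PRE-CX, 1 in CRPC against PRE-CX (2 as reported) and 3 in ENZS against PRE-CX (5). With no filter, over 39909 genes, CRPC against PRE-CX gave 1 and ENZS against CRPC 0, and a pseudocount of 0.1 gave 0 in ENZS against CRPC.

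Leaving out 1 tumour gave 1 in POST-CX against PRE-CX each time, 0 to 2 in CRPC against PRE-CX, 4 to 5 in ENZS against PRE-CX, 3 to 5 in ENZR against PRE-CX, 0 to 2 in ENZS against CRPC, 1 to 2 in ENZR against CRPC, 0 to 1 in ENZS against POST-CX and 0 to 1 in ENZR against POST-CX. The other 3 comparisons gave 0 each time. PCA3 and PCAT14 lie near 1 TPM, and with a pseudocount of 0.1 their called differences grew to between -2.15 and -1.35. Of the 30 most alike pairs, r was higher with deposited TPM, which carry the human total of each tumour, in 22 and lower in 8, and for SCHLAP1 and UBE2E3 it was 0.52 in place of -0.16.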
